A study of Mus musculus with 6 samples.

Results

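The Obox genes are a family of homeobox genes of the mouse oocyte and early embryo, clustered on chromosome 7. The 7 family members described here, Obox1, Obox2, Obox3, Obox5, Obox6, Obox7 and Obox8, were taken by their names from a table of 53023 genes. They were read in 3 groups of two-cell embryos of the ICR strain, all collected at 28 h post insemination (hpi), with 2 libraries per group and a pool of 5 embryos per library. Embryos of the PIASy-WT group had received RNA for tagged PIASy, a SUMO E3 ligase encoded by Pias4. Embryos of the PIASy-Mut group had received RNA for the tagged C335F form, a SUMO ligase mutant. In the paper both forms carried mCherry and HA tags. The RNA, at 100 ng/µL, went into the cytoplasm 1.5 to 3 hpi, and zygotes that fluoresced at 9 hpi were kept. Embryos of the non-injection group received no RNA and were the control. PIASy-Mut is therefore the control that shares the injection and the selection with PIASy-WT, while non-injection shares neither. By the study's methods the libraries of a group are biological replicates, but neither the methods nor the labels say whether the 2 libraries of a group came from separate collections of embryos, so the p-values measure the spread between these libraries.

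Homeobox genes code for transcription factors that bind DNA through a homeodomain, whose recognition helix lies in the major groove. The residue at homeodomain position 50 helps to set the preferred DNA letters, and a lysine there is the mark of the Bicoid and Otx type, which prefers TAATCC. In the mouse, some Obox transcripts are stored in the growing oocyte and inherited by the embryo as maternal RNA, whereas others are made when the embryo's own genome is switched on at the two-cell stage, in zygotic genome activation (ZGA). OBOX proteins are known to take part in that activation. Obox1, Obox2, Obox5 and Obox7 are called maternal members here and Obox3 and Obox6 zygotic members, as prior knowledge of the family has it. Obox8 was put in neither class. The 6 libraries are all from one stage, so these data do not check the classes.

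The coding sequence around the recognition helix is shown for the 6 members in which a homeobox of 60 codons was found, because it carries both the likeness of the family and the place where the members part. Each stretch of 51 bases runs from codon 42 to codon 58 of the homeobox, and the capitals mark codon 50, which was AAG (lysine) in all 6.
Obox1: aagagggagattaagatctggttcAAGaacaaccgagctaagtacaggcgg
Obox3: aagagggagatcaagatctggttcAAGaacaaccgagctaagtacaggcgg
Obox5: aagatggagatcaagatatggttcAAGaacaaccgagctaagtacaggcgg
Obox7: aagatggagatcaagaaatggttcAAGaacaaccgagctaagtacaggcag
Obox6: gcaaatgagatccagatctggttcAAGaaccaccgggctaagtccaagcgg
Obox8: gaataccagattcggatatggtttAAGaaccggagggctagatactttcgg
In mm10 these bases lie in coding exons, either side of an intron, within chr7:15555690-15556186 for Obox1, chr7:15626290-15626810 for Obox3, chr7:15758064-15758574 for Obox5, chr7:14664565-14665303 for Obox7, chr7:15833915-15834394 for Obox6 and chr7:14332058-14332634 for Obox8. The search took principal transcripts whose coding sequence starts with methionine and holds the homeodomain pattern WFxNxR (x, any residue) in a single place. No Obox2 transcript met these terms, which does not show that Obox2 lacks a homeobox. Over the whole homeobox of 180 bases, zygotic Obox3 matched the maternal members more closely than it matched zygotic Obox6. Obox3 and Obox1 had 96.1% of bases identical, Obox3 and Obox5 had 95.6%, Obox3 and Obox7 had 92.2%, and Obox3 and Obox6 had 71.7%. Obox8 stood farthest from the rest, with 52.8% (Obox7) to 59.4% (Obox6) of bases identical.

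All members lie on chromosome 7 (mm10), and the 3 that are not maternal are read from the minus strand. Obox8 lies at chr7:14331436-14333557, Obox3 at chr7:15479825-15639902 and Obox6 at chr7:15833241-15839678, on the minus strand. The maternal members are on the plus strand, with Obox7 at chr7:14659496-14665996, Obox2 at chr7:15388721-15398545, Obox1 at chr7:15388948-15556866 and Obox5 at chr7:15750131-15759800. All 7 are annotated as protein coding. The table held 48 further rows with an Obox name, all pseudogenes, of which 8 were named Obox3-ps, 39 Obox4-ps and 1 Obox6-ps.

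Counting error was small for the members. The libraries held 871663 (PIASy-Mut 2) to 1363928 (non-injection 1) fragments assigned to genes, so 3 fragments, the upper limit that a count of 0 allows, corresponded to 2.20 to 3.44 CPM (counts scaled to a common library total). The fewest fragments counted for any member in any library were 25, for Obox8 in PIASy-WT 1 and for Obox3 in PIASy-WT 2. The injected gene checked which libraries were injected, but values per gene cannot tell PIASy-WT RNA from PIASy-Mut RNA. Pias4 had 2.98 and 3.59 FPKM (fragments scaled by gene length and library total) without injection, 862 and 611 FPKM with PIASy-Mut and 610 and 579 FPKM with PIASy-WT, and it did not pass the test between PIASy-WT and PIASy-Mut (log2 fold change −0.29 ± 0.26 (SE), adjusted P = 0.513). The libraries were those of oocyte-derived cells. All 20 genes of an oocyte list were tested, and they summed to 9951 to 14248 CPM per library. Of 15 markers of cumulus cells, the cells that surround the oocyte, 4 had no fragment in any library (Foxl2 and Amh among them) and 7 had at most 3 fragments in each, and the whole list summed to 42.4 to 56.2 CPM in the 4 control libraries and 29.6 and 30.2 CPM in PIASy-WT. The lower cumulus sum moved with PIASy-WT, and its part in the results below was not tested.

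In non-injected embryos, maternal Obox5 was the most abundant member. Obox5 had 1542 and 943 FPKM, which placed it 23rd and 40th among the 16100 genes tested. Obox6 followed with 601 and 595 FPKM, then Obox8 with 441 and 369 FPKM and Obox1 with 193 and 113 FPKM. Obox3 had 148 and 118 FPKM, Obox2 had 111 and 55.3 FPKM, and Obox7 had 44.9 and 38.1 FPKM. Of neighbours in that order, Obox1 and Obox3 overlapped between the 2 libraries and the other neighbours did not. All 7 members were thus present in late two-cell embryos, maternal and zygotic members side by side. FPKM divides by length, and since only uniquely mapped reads were counted, the levels of members that share long stretches with other genes are understated relative to the others.

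Obox3, Obox6 and Obox8 were lower in PIASy-WT embryos than in embryos without injection, and none of the 4 maternal members was called. The mean FPKM was 12.7-fold lower for Obox6, 15.2-fold lower for Obox3 and 21.9-fold lower for Obox8. Log2 fold changes were fitted with limma on log2(FPKM + 1) over all 16100 genes and 6 libraries, with an adjusted P of 0.05 or less taken as a call. By that rule 3 of 7 members were lower and 0 of 7 were higher, against 5.76% of all genes tested lower and 1.03% higher.

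Obox6 had 601 and 595 FPKM without injection and 51.6 and 42.7 FPKM in PIASy-WT (598 ± 3.65 and 47.2 ± 6.31 (SD), n = 2 each). The gap between the groups was far larger than the gap within either. The log2 fold change was −3.64 ± 0.36 (SE, adjusted P = 0.0224). Obox3 had 148 and 118 FPKM in non-injection and 10.6 and 6.82 FPKM in PIASy-WT (133 ± 21.5 and 8.73 ± 2.70 (SD), n = 2 each). Both PIASy-WT libraries were again below both controls, with a log2 fold change of −3.80 ± 0.34 (SE, adjusted P = 0.0224). Obox8, the member farthest from the others in homeobox sequence, had 441 and 369 FPKM in non-injection and 16.2 and 20.9 FPKM in PIASy-WT (405 ± 50.9 and 18.5 ± 3.33 (SD), n = 2 each). Its log2 fold change was −4.38 ± 0.58 (SE, adjusted P = 0.0251). These are among the most negative values of the table. Of 16100 genes, 20 had a more negative log2 fold change than Obox8, 61 than Obox3 and 78 than Obox6. The direction held without any 1 library, with log2 fold changes of −4.56 to −3.51 over the 3 members, but without either non-injection or either PIASy-WT library the adjusted P was 0.0637 to 0.198 and 0 genes of the table were lower.

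The maternal members had positive log2 fold changes that did not pass the test, and the sign turned without 1 library for Obox2 (−0.14 without PIASy-WT 1) and Obox5 (−0.25 without non-injection 2 and −0.18 without PIASy-WT 1). Obox1 had 193 and 113 FPKM in non-injection and 303 and 262 FPKM in PIASy-WT, and the PIASy-WT libraries were both the higher ones. Its log2 fold change was 0.93 ± 0.61 (SE, adjusted P = 0.369), with a 95% interval of −0.57 to 2.43. Obox7 had 44.9 and 38.1 FPKM in non-injection and 57.0 and 74.4 FPKM in PIASy-WT, again without overlap, and a log2 fold change of 0.64 (95% interval −0.46 to 1.75, adjusted P = 0.398). Obox2 had 111 and 55.3 FPKM in non-injection and 176 and 71.4 FPKM in PIASy-WT, with overlapping groups and a log2 fold change of 0.51 (95% interval −1.39 to 2.41, adjusted P = 0.698). Obox5 had 1542 and 943 FPKM in non-injection and 1583 and 1063 FPKM in PIASy-WT, so that the libraries interleaved, and its log2 fold change was 0.11 (95% interval −0.85 to 1.06, adjusted P = 0.886). At an unadjusted p under 0.05, 0 of the 4 maternal members passed with limma on log2(FPKM + 1), against 28.2% of all genes tested. With limma's voom on recovered fragments 0 of 4 passed after adjustment (5.11% of all genes tested were higher and 11.8% lower), and Obox1 had an unadjusted p of 0.0384 (adjusted P = 0.130). The intervals reach a doubling or more for each of the 4, so changes of that size are not excluded. The median log2 fold change was 0.58 over the 4 maternal members, −3.72 over the 2 zygotic members and 0.0087 over all genes tested.

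Counted by non-overlap alone, 3 members (Obox3, Obox6, Obox8) had both PIASy-WT libraries below both non-injection libraries, against 31.9% of all genes tested, and 2 (Obox1, Obox7) had both above, against 29.8%. Such separation is common at 2 libraries per group.

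**Figure D1:**
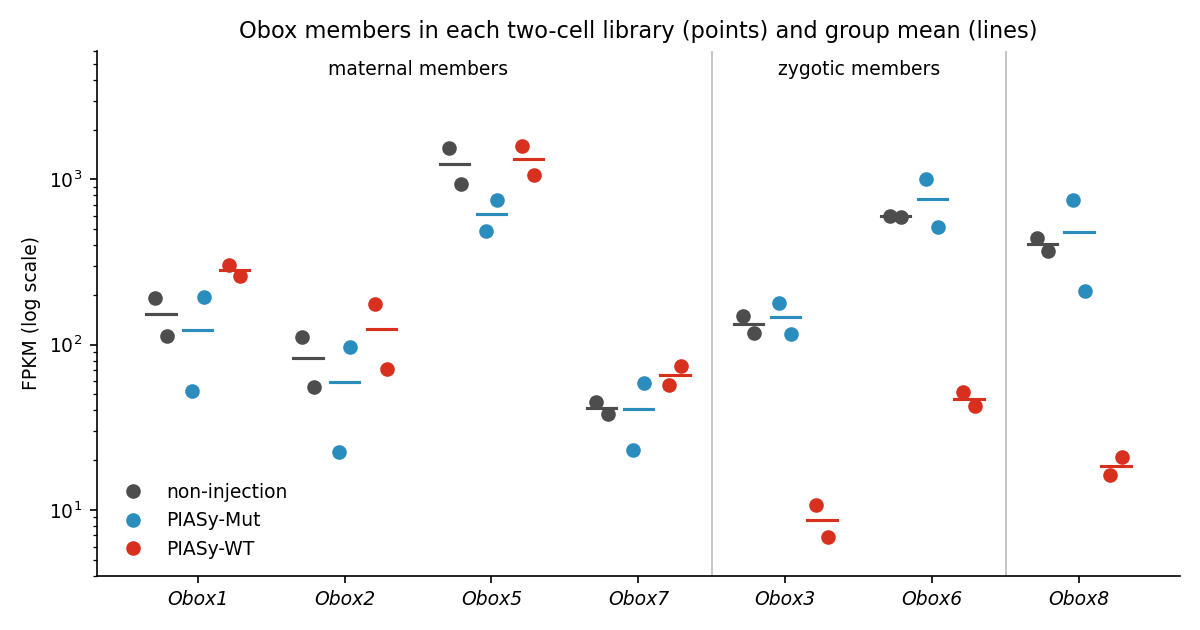
FPKM (log axis) of the 7 Obox members, with 1 point per library, a line at the mean of the 2 libraries, and a colour for each of the 3 groups. The PIASy-WT points of Obox3, Obox6 and Obox8 lie between 6.82 and 51.6 FPKM, below all control points of the same gene, while those of the maternal members lie within or above their controls.

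The comparison with PIASy-Mut, the mutant in ligase function, gave the same 3 members. The paper reports PIASy-WT mainly in nuclei and PIASy-Mut in both nuclei and cytoplasm. The injected proteins thus differed in place as well as in ligase function, and the part of each was not tested. Obox3, Obox6 and Obox8 were lower in PIASy-WT and 0 of 7 members were higher, against 6.01% of all genes tested lower and 0.82% higher. The 2 comparisons share the PIASy-WT libraries, so the second is no independent repeat of the first. Obox6 had 1002 and 513 FPKM in PIASy-Mut against 51.6 and 42.7 FPKM in PIASy-WT, with a log2 fold change of −3.90 ± 0.36 (SE, adjusted P = 0.0219). Obox3 had 178 and 115 FPKM against 10.6 and 6.82 FPKM, with a log2 fold change of −3.92 ± 0.34 (SE, adjusted P = 0.0219). Obox8 had 752 and 210 FPKM against 16.2 and 20.9 FPKM, with a log2 fold change of −4.36 ± 0.58 (SE, adjusted P = 0.0240). In each of the 3 the PIASy-Mut libraries were well apart from each other, with PIASy-Mut 1 the higher, yet PIASy-Mut 2 was still far above either PIASy-WT library. Without PIASy-Mut 1 the log2 fold changes were −3.61 (Obox3), −3.42 (Obox6) and −3.45 (Obox8), and the adjusted P rose to 0.0587, 0.0584 and 0.0584 in a fit in which 0 genes of the table passed. The calls were likewise lost without any 1 library of the other groups (adjusted P 0.0627 to 0.116), and they held without PIASy-Mut 2. With 1 library of a group left out, the remaining one is assumed to vary like the other groups.

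Against PIASy-Mut, 0 of the 4 maternal members passed the adjusted test of limma on log2(FPKM + 1), and their values were spread by the PIASy-Mut libraries. Obox5 had 488 and 754 FPKM in PIASy-Mut, below both PIASy-WT values of 1583 and 1063 FPKM, with a log2 fold change of 1.09 (95% interval 0.14 to 2.05, unadjusted p = 0.0304, adjusted P = 0.136). Obox1 had 52.5 and 193 FPKM in PIASy-Mut against 303 and 262 FPKM, also without overlap, with a log2 fold change of 1.47 (95% interval −0.03 to 2.97, adjusted P = 0.186). Obox2 had 22.4 and 96.2 FPKM in PIASy-Mut (log2 fold change 1.25, adjusted P = 0.356) and Obox7 had 23.0 and 58.7 FPKM (log2 fold change 0.81, adjusted P = 0.309), and both overlapped with PIASy-WT. At an unadjusted p under 0.05 there was 1 of 4 maternal members, Obox5, against 27.7% of all genes tested. With voom on recovered fragments 2 maternal members passed as higher in PIASy-WT, Obox1 (log2 fold change 1.52, adjusted P = 0.0326) and Obox5 (log2 fold change 1.12, adjusted P = 0.0191). By voom 3.37% of all genes tested were higher and 11.6% lower. The maternal median was 1.17 and the zygotic median −3.91, beside −0.03 over all genes tested. Without PIASy-Mut 1 the maternal log2 fold changes were 0.54 (Obox1), 0.22 (Obox2), 0.78 (Obox5) and 0.15 (Obox7), so their size leaned on that library. Counted by non-overlap, 3 members lay below PIASy-Mut and 2 above it, against 31% and 25.5% of all genes tested.

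PIASy-Mut against non-injection gave 0 members lower and 0 higher with limma, against 0% of all genes tested lower and 0.00621% higher, the 1 gene called being Pias4. At an unadjusted p under 0.05, which 4.46% of all genes tested reached, there was 1 member, Obox5, whose 488 and 754 FPKM lay below the 1542 and 943 FPKM of non-injection (log2 fold change −0.99, 95% interval −1.94 to −0.04, unadjusted p = 0.0438, adjusted P = 1). Of all genes tested, 10.8% had both PIASy-Mut libraries below both non-injection libraries. With voom the adjusted P of every member was at least 0.991, and 0% of all genes tested were lower and 0.00621% higher. The log2 fold changes of Obox3, Obox6 and Obox8 were 0.12, 0.26 and −0.02, with 95% intervals of −0.71 to 0.94, −0.61 to 1.13 and −1.43 to 1.39. These intervals do not reach the values that the same genes had in PIASy-WT.

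**Figure D2:**
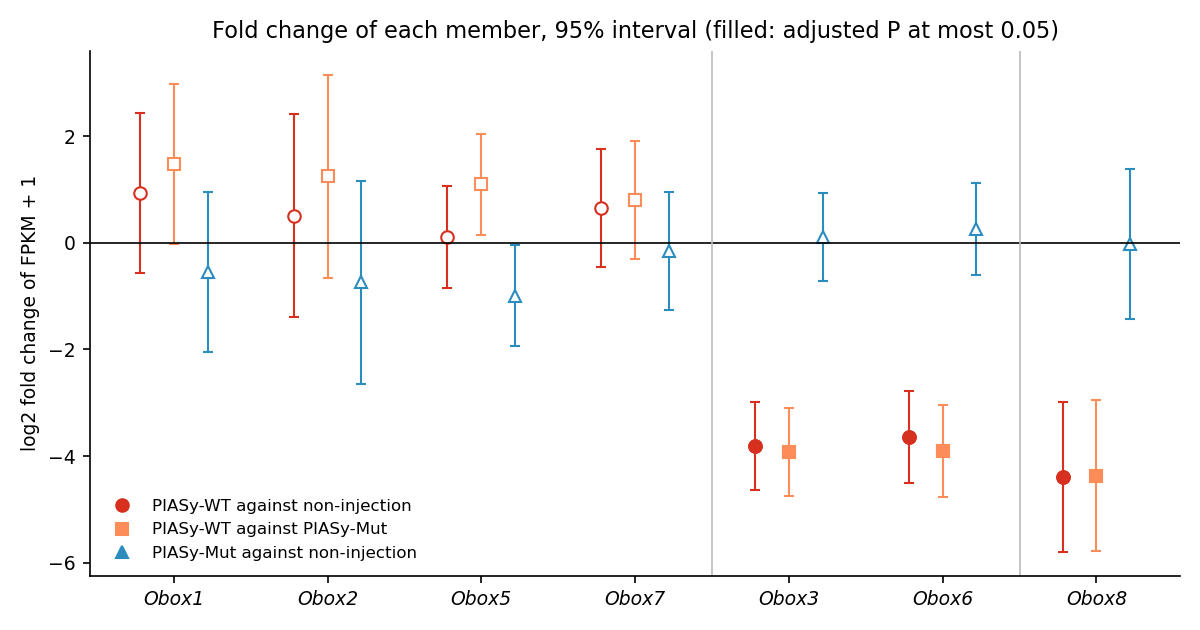
Log2 fold change of FPKM + 1 for each member in the 3 comparisons, with bars for the 95% interval of the limma fit and filled symbols for an adjusted P of at most 0.05. Filled symbols are found for Obox3, Obox6 and Obox8 in both comparisons of PIASy-WT, between −4.38 and −3.64, and the intervals of PIASy-Mut against non-injection include 0 for each member except Obox5.

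The make-up of the family followed from these values. The maternal members summed to 1891 and 1150 FPKM in non-injection, 586 and 1102 FPKM in PIASy-Mut, and 2119 and 1471 FPKM in PIASy-WT. The zygotic members summed to 749 and 713 FPKM in non-injection, 1180 and 628 FPKM in PIASy-Mut, and 62.3 and 49.5 FPKM in PIASy-WT. Of the summed FPKM of the 7 members, 61.4% and 51.5% came from maternal members without injection, 23.3% and 56.8% with PIASy-Mut, and 96.4% and 95.4% with PIASy-WT. Obox5 alone was 68.4% to 83.3% of the maternal sum in the 6 libraries. The log2 ratio of zygotic to maternal FPKM was −1.34 and −0.69 without injection, 1.01 and −0.81 with PIASy-Mut, and −5.09 and −4.89 with PIASy-WT. The difference of means was −3.98 for PIASy-WT minus non-injection and −5.09 for PIASy-WT minus PIASy-Mut. FPKM values are shares of a library, so fewer cells with a transcript and less of it per cell cannot be told apart. The zygotic to maternal ratio is taken within a library, so the library total cancels in it.

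PIASy-Mut 1 stood apart from the other library of its group. It had the lowest value of the 6 libraries for each of the 4 maternal members and the highest for Obox3, Obox6 and Obox8, and zygotic FPKM exceeded maternal FPKM in it alone. PIASy-Mut 2 had a ratio of −0.81, between those of the non-injection libraries. The order of the maternal and zygotic sums thus differed between embryo pools of one group, whereas both PIASy-WT ratios were lower than all 4 control ratios.

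**Figure D3:**
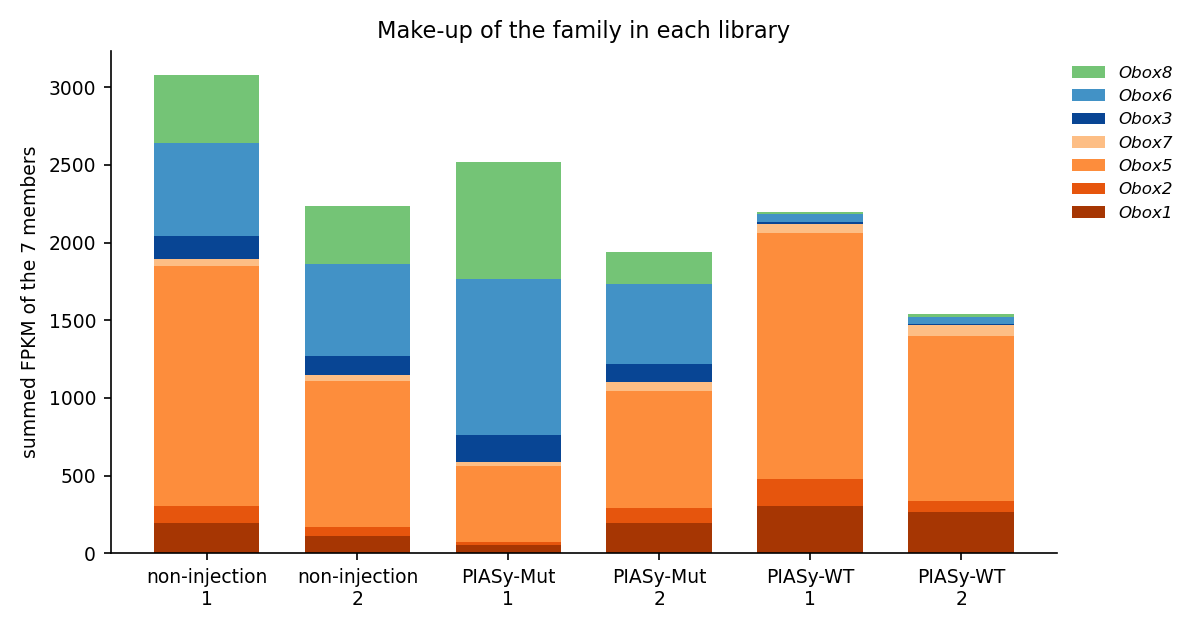
Summed FPKM of the 7 Obox members in each of the 6 libraries, stacked by member from maternal (orange and brown) to zygotic (blue) and Obox8 (green). The blue and green parts nearly vanish in PIASy-WT, where the maternal part is 96.4% and 95.4% of the stack, against 23.3% to 61.4% in the other libraries.

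Response to PIASy-WT did not follow the likeness of the homeobox. Profiles were compared by the root mean square difference between mean-centred log2(FPKM + 1) values over the 6 libraries, where 0 means the same profile. Obox3 and Obox6 differed by 0.18, although only 71.7% of their homeobox bases were identical. Obox3 and Obox1 differed by 2.51 with 96.1% identity. The 3 pairs among Obox3, Obox6 and Obox8 had identities of 55% to 71.7% and profile differences of 0.18 to 0.51, and the 3 maternal pairs with a homeobox had identities of 91.1% to 95.6% and differences of 0.39 to 0.50. The 9 pairs of a maternal member with Obox3, Obox6 or Obox8 differed by 2.18 to 2.85 at identities from 52.8% to 96.1%. The points share their libraries and members, and the same values were used to describe the members above, so this is a description with no test.

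**Figure D4:**
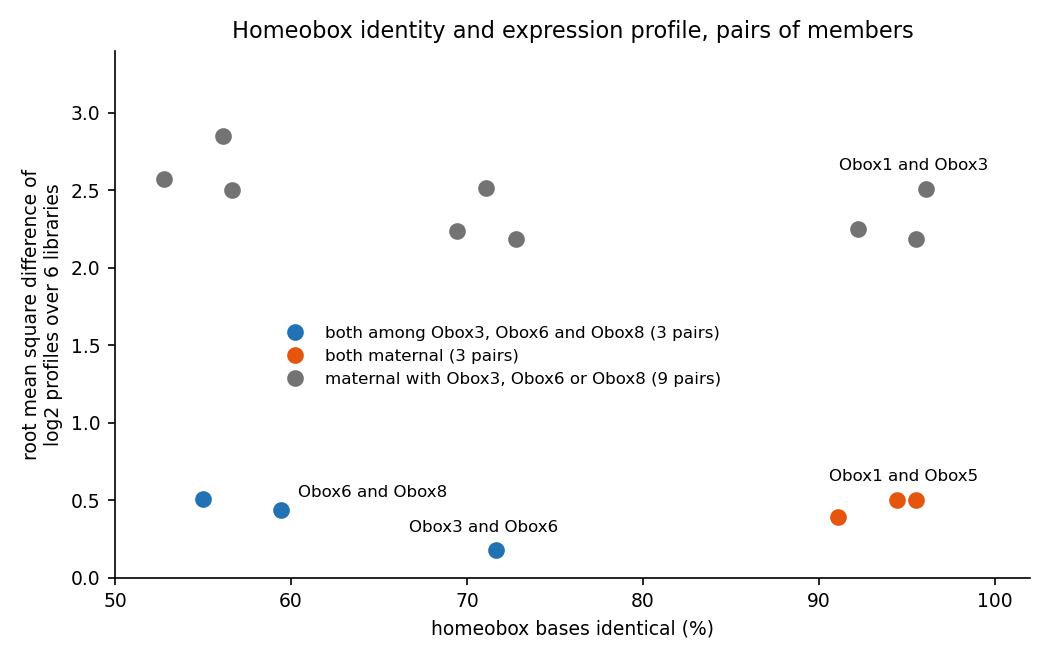
Root mean square difference of log2 profiles over the 6 libraries (vertical axis) against the percentage of identical homeobox bases (horizontal axis), with 1 point for each of 15 pairs of 6 members. Pairs of like response lie at or below 0.51 whatever their identity, and pairs of a maternal member with Obox3, Obox6 or Obox8 lie at or above 2.18, Obox1 with Obox3 at 96.1% identity included.

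Sequence before the start sites was available for 5 members in RefSeq (GRCm38.p6, 250 bases before to 50 after the start). With 1 zygotic window, that of Obox3, the likeness within that class could not be read. Aligned windows of maternal Obox1, Obox5 and Obox7 shared 89.3% to 92.3% of their 300 bases, Obox3 shared 71% to 76% with these 3, and Obox2 shared 59% to 67.7% with the other 4. Read from the far end, the windows met an annotated exon after 0 (Obox1), 11 (Obox5), 38 (Obox7), 120 (Obox2) and 125 (Obox3) bases. The likeness is therefore in part that of annotated exon sequence. The letters TAATCC or their complement GGATTA, the preferred letters of a homeodomain with lysine at position 50, were found in 1 of the 5 windows, that of Obox3, and in 7.06% of 32851 windows of the same length. TAATTG or its complement CAATTA, an element described for the oocyte homeobox factor NOBOX, was found in 0 of the 5 and in 8.0% of all windows. The match in Obox3 begins 168 bases before the RefSeq start. The 125 bases that hold it, outside annotated exons at chr7:15639903-15640027 on the minus strand, are shown with the match in capitals.
Obox3 upstream: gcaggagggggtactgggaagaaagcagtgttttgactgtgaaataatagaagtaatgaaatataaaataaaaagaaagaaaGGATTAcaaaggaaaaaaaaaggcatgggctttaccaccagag
A match is a run of letters and no measured site, and no binding data were used.

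Shared sequence limits some members more than others. Annotated transcripts were cut into words of 50 bases, the length of the longer read, and each word was looked up in the transcripts of all genes. Obox8 shared 0% of its words with another gene, and Obox6 shared 5.02%, all with the pseudogene Obox6-ps1, which had at most 3 fragments in every library. The lower levels of Obox6 and Obox8 in PIASy-WT therefore rest almost wholly on sequence of their own. Obox3 shared 20.2% of its words, 14.5% with Obox3-ps3 and 0.97% with Obox1. Among maternal members, Obox5 shared 18.1% and Obox7 21.1%, mostly with each other, whereas Obox1 shared 56.4% of its words with Obox2, and Obox2 shared 62.7% with Obox1. Obox1 and Obox2 also share 59 exon bases on the same strand, so their separate values are uncertain. Their sum was 304 and 168 FPKM in non-injection, 74.9 and 289 FPKM in PIASy-Mut, and 479 and 333 FPKM in PIASy-WT.

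Obox1 and Obox3 overlap over a long stretch on opposite strands, but share 0 exon bases. The library kit does not mark strand, and the strand setting of the counting is not stated, so a fragment in such a stretch could not be given to a strand. Whether fragments from an intron of one gene were counted for the other was not tested. The other genes inside the bodies of Obox1 and Obox3 were pseudogenes and a small nuclear RNA gene. Ranbp2-ps8, Ranbp2-ps9, Ranbp2-ps10 and Gm25354 had no fragment in any library, and Obox3-ps6, Obox4-ps27, Obox4-ps28, Obox4-ps29, Obox4-ps30 and Obox4-ps31 belong to the pseudogenes described next.

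Most of the Obox3 pseudogenes went with Obox3. The 8 of them summed to 761 and 470 FPKM in non-injection, 855 and 578 FPKM in PIASy-Mut, and 59.0 and 48.7 FPKM in PIASy-WT. All 8 were tested, and 7 were called lower in PIASy-WT against non-injection, with a median log2 fold change of −3.42 over the 8 and a range of −4.73 (Obox3-ps6) to −1.62 (Obox3-ps8). Against PIASy-Mut 6 of 8 were lower, with a median of −3.65 and a range of −5.06 to −0.62. Obox3-ps8 was called in neither comparison, and its libraries overlapped between PIASy-WT and PIASy-Mut (log2 fold change −0.62, adjusted P = 0.453). Against non-injection, PIASy-Mut had 0 of 8 lower or higher by limma, 0 at an unadjusted p under 0.05 and 0 by voom.

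How far these rows measure more than Obox3 and one another differs between them. Obox3-ps5 shared 93.0% of its words with other genes and Obox3-ps6 80.2%, mostly with each other, and Obox3-ps3 shared 49.8% with Obox3 itself. Obox3-ps7 shared 0%. It had 96.6 and 49.6 FPKM in non-injection, 52.0 and 47.6 FPKM in PIASy-Mut, and 12.9 and 19.1 FPKM in PIASy-WT, from 7 and 9 fragments in the last. It was lower than non-injection (log2 fold change −2.07 ± 0.39 (SE), adjusted P = 0.0381) and missed the threshold against PIASy-Mut (−1.60, adjusted P = 0.0611), although both PIASy-WT libraries were the lowest.

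Few Obox4 pseudogenes could be measured. Of 39 rows, 20 had no fragment in any library and 34 had at most 3 fragments in each. Of the 20 rows at 0, 12 shared at least 90% of their words with another gene, 7 of them all words, so uniquely mapped reads could hardly fall on these 12 and their 0 does not show that they are silent. The other 8 shared less, and 2 of them shared no word. The filter on low values was passed by 12 of the 39 rows. Of the 12 rows tested, 1 was lower in PIASy-WT in both comparisons and 0 were higher by limma, with 1 lower and 2 higher than non-injection at an unadjusted p under 0.05, and 1 lower and 1 higher by voom, which is near the shares over all genes given above (5.76% and 6.01% lower by limma). The 1 lower was Obox4-ps35, which shares 0% of its words with another gene. It had 176 and 138 FPKM in non-injection, 252 and 142 FPKM in PIASy-Mut, and 15.5 and 29.4 FPKM in PIASy-WT. The pattern was that of the zygotic members, with log2 fold changes of −2.80 ± 0.42 (SE, adjusted P = 0.0292) against non-injection and −3.08 ± 0.42 (SE, adjusted P = 0.0240) against PIASy-Mut. Obox4-ps3, also without shared words, had 29.6 and 18.7 FPKM in non-injection, 18.6 and 46.3 FPKM in PIASy-Mut, and 26.1 and 20.1 FPKM in PIASy-WT, so the groups overlapped (log2 fold change against non-injection −0.04, adjusted P = 0.978).

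Genes outside the family matched the profiles of single members closely. Among 4704 genes of at least 10 FPKM on average, the nearest to Obox3 were Folr1, a folate receptor gene (root mean square difference 0.15), Rpl41, a ribosomal protein gene (0.15), and Gm16381 (0.16). Rpl41, for example, had 878 and 849 FPKM in non-injection, 1056 and 628 FPKM in PIASy-Mut, and 83.3 and 49.9 FPKM in PIASy-WT. The nearest to Obox6 were Dppa4, a chromatin factor of pluripotent cells (0.14), the pseudogene Gm13777 (0.16) and again Folr1 (0.17). Dppa4 had 152 and 162 FPKM in non-injection, 269 and 109 FPKM in PIASy-Mut, and 11.8 and 8.51 FPKM in PIASy-WT. The nearest to Obox5 were Adm, the adrenomedullin gene (0.11), Tcl1b4 of the oocyte Tcl1 cluster (0.17) and the selenoprotein gene Selenoh (0.17). Tcl1b4 had 618 and 446 FPKM in non-injection, 232 and 437 FPKM in PIASy-Mut, and 672 and 519 FPKM in PIASy-WT, and so shared with the maternal members its lowest value in PIASy-Mut 1. These distances were taken over 6 libraries and carry no test.

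Other homeobox genes of the paired and related classes were mostly low. Their counts, and those of the 8 Obox3 pseudogenes and of the lists that follow, stand beside 5.76% (against non-injection) and 6.01% (against PIASy-Mut) of all genes tested lower by limma, 11.8% and 11.6% lower and 5.11% and 3.37% higher by voom, and 28.2% and 27.7% at an unadjusted p under 0.05 in either direction. Of 18 such genes found in the table, 2 had no fragment and 6 had at most 3 fragments in each library, and 11 were tested. In each comparison of PIASy-WT, 1 of 11 was lower and 0 were higher by limma, with 1 lower in each, 2 higher than non-injection and 4 higher than PIASy-Mut at an unadjusted p under 0.05. By voom 1 was lower in each, and 3 and 2 were higher. The 1 lower was Crxos, a homeobox gene of the early embryo. Crxos had 214 and 141 FPKM in non-injection, 247 and 126 FPKM in PIASy-Mut, and 18.4 and 11.8 FPKM in PIASy-WT, with log2 fold changes of −3.47 ± 0.43 (SE, adjusted P = 0.0236) and −3.49 ± 0.43 (SE, adjusted P = 0.0224). Sebox, a homeobox gene of the oocyte, had 105 and 116 FPKM in non-injection, 120 and 164 FPKM in PIASy-Mut, and 240 and 250 FPKM in PIASy-WT. Its groups did not overlap, and it just missed the threshold against non-injection (log2 fold change 1.15 ± 0.25 (SE), adjusted P = 0.0504). The median log2 fold changes of the 11 were 1.13 and 0.80 in the same 2 comparisons, of the opposite sign to Crxos, Obox3 and Obox6. Several of the 11 rested on few fragments, such as Gsc with at most 3 and Esx1 with at most 5 in any library. These medians therefore do not show a rise.

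Lists of oocyte and of two-cell genes were read beside the members. Of 20 oocyte genes, 1 was lower in PIASy-WT in both comparisons (Zp3, of the zona pellucida) and 0 were higher by limma, with a list median of 0.27 against non-injection. In that comparison 4 were lower and 5 higher at an unadjusted p under 0.05, and 2 were lower and 3 higher by voom. Dppa3, a maternal factor that guards DNA methylation, had 6001 and 5264 FPKM in non-injection and 3681 and 2516 FPKM in PIASy-WT (log2 fold change −0.88, adjusted P = 0.153), and the oocyte gene Oosp1 had 2428 and 1971 FPKM against 3208 and 2266 FPKM (log2 fold change 0.30, adjusted P = 0.569). Of 24 genes known to be switched on at the two-cell stage 23 were tested, and 3 (Usp17lb, Tdpoz1 and Tdpoz4) were lower than in non-injection and 4 (these and Tcstv3) lower than in PIASy-Mut. None was higher by limma. At an unadjusted p under 0.05, 8 and 11 were lower in the 2 comparisons and 1 was higher in each, and by voom 7 and 8 were lower and 1 was higher in each. Usp17lb had 387 and 420 FPKM in non-injection, 582 and 415 FPKM in PIASy-Mut, and 66.7 and 69.7 FPKM in PIASy-WT (log2 fold changes −2.55 and −2.83, adjusted P = 0.0224 and 0.0219). The list medians were −0.63 and −0.61, so that Obox3, Obox6, Obox8 and Crxos lay far below the middle of the two-cell list. Of the cumulus markers 5 were tested, and Amhr2, at 3 and 4 fragments in PIASy-WT, was lower than in non-injection (adjusted P = 0.0427). At an unadjusted p under 0.05, 2 of the 5 were lower and 2 higher than in non-injection, and by voom 2 were lower and 1 higher, with a list median of 0.29. Gja1, a gap junction gene, had 2.57 and 1.81 FPKM in non-injection, 2.64 and 1.23 FPKM in PIASy-Mut, and 0.15 and 0.42 FPKM in PIASy-WT, and did not pass (log2 fold change −1.31 ± 0.44 (SE), adjusted P = 0.122).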

How the data were processed

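RNA-seq was performed by the authors on 6 libraries, each of 5 two-cell embryos, with SMART-Seq v4 cDNA and Nextera XT. Per the submitters' notes and the study's methods, reads were trimmed with Trim Galore, mapped to mm10 with STAR, and uniquely mapped reads counted with featureCounts. Tool versions, annotation release and strand setting are not given in the sources used here. The authors deposited FPKM values for 53023 genes. The table has 0 spike-in rows, so values are shares of a library. The authors' own DESeq2 results were not used.

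From the deposited FPKM and gene lengths, whole fragments were recovered (100% of values whole within 0.001). Genes that reached an FPKM of 1 in 2 or more libraries (16100) were tested with limma 3.58.1 in R 4.3.3 (lmFit, eBayes with trend) on log2(FPKM + 1), over all 6 libraries, with Benjamini-Hochberg adjustment over all genes tested. With a pseudocount of 1, fold changes of low genes are understated. Two-sided p-values rest on 3 residual and 3.12 prior degrees of freedom. The script was tested on simulated data. Shared 50-base words and homeoboxes were read from GENCODE M21 transcripts (GRCm38), whose gene positions match the table, and promoters from RefSeq. Folds without a log are ratios of mean FPKM.

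Named genes were the 7 members, all other Obox rows, genes overlapping a member, Pias4, the 3 genes nearest in profile to Obox3, Obox6 and Obox5, and the 2 genes of each list highest in non-injection. Zp3, Tdpoz1, Tdpoz4, Foxl2 and Amh were named after their values were seen. The members, their classes and the gene lists were chosen with earlier results of these data known. Samples were grouped by their titles. Samples were not treated as paired by replicate number. Deviations from the group mean were hardly correlated between libraries of the same number (0.0037, 0.085 and 0.064). Such correlations cannot show whether libraries shared a collection. The alternatives were other pseudocounts, filters, scalings, fits and left-out libraries.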

Additional observations from a re-analysis of the deposited data

How the results depend on the processing

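Over 17 alternatives per comparison, Obox3, Obox6 and Obox8 kept their negative sign in both comparisons of PIASy-WT. Some alternatives changed only the filter, the error or libraries outside the comparison. These left the log2 fold change as it was, so its sign could not turn. The count of members lower was 3 in each alternative that kept all libraries, except that without the filter on low values Obox8 missed the threshold against non-injection (adjusted P = 0.0507), and that with only the groups compared 0 were lower than PIASy-Mut (adjusted P = 0.0681 for each), a fit in which 0 of 14510 genes passed. The fit with the replicate block, which rests on a shared number only, called 3 members lower in both comparisons, and it called 719 genes of the table lower than non-injection and 799 lower than PIASy-Mut. Leaving out 1 library gave 0 to 3 members lower in both comparisons, and 0 to 2 higher than PIASy-Mut. Without either non-injection or either PIASy-WT library 0 members passed in either comparison, and without PIASy-Mut 1 none passed against PIASy-Mut, in fits with fewer samples. Without PIASy-Mut 2, Obox1 (2.40) and Obox7 (1.46) passed as higher than PIASy-Mut, in a fit where PIASy-Mut 1, the lowest of the 6 libraries for these genes, stands alone and its spread is taken from the other groups. Voom on recovered fragments called 2 members higher than PIASy-Mut. The difference of the zygotic to maternal log2 ratio between PIASy-WT and non-injection was −4.46 by medians of genes, in place of −3.98. Signs turned only for results that had not passed. With 1 library left out, log2 fold changes against non-injection ran in PIASy-WT from −0.14 to 1.16 (Obox2) and from −0.25 to 0.46 (Obox5), and in PIASy-Mut from −1.47 to 0.39 (Obox1), −1.77 to 0.29 (Obox2), −0.19 to 0.42 (Obox3), −0.22 to 0.74 (Obox6), −0.82 to 0.50 (Obox7) and −0.94 to 0.90 (Obox8). Obox8 in PIASy-Mut was also 0.0073 under quantile normalization and 0.0049 by voom. Where no construction is named, the cause was not tested. Under quantile normalization the median log2 fold change of all genes in PIASy-WT was 0.12 (non-injection as control) and 0.11 (PIASy-Mut as control).

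The numbers of genes of the table lower than non-injection were 928 in the main analysis, 154 without a filter, 1441 with FPKM of at least 5, 1998 with only the groups compared, 256 without the mean-variance trend, 1895 by voom and 614 with a log2 size of at least 2.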

Other observations

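The stretch of chromosome 7 from Obox8 to Obox6 held 84 rows of the table, of which 53 were Obox rows and 31 were not. Of the 31, 24 had at most 3 fragments in every library and 9 passed the filter. Of these 9, 1 was lower by limma in PIASy-WT against either control (5.76% and 6.01% of all genes tested were lower). It was the pseudogene Gtpbp4-ps2, named after its values were seen, with log2 fold changes of −4.54 ± 0.79 (SE, adjusted P = 0.0339) against non-injection and −4.98 ± 0.79 (SE, adjusted P = 0.0293) against PIASy-Mut. The medians over the 9 were −0.60 and −0.74.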
